A study of Drosophila melanogaster with 10 samples.

Results

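A set of 97 probes of a spotted Drosophila melanogaster array gave strongly positive log ratios between female and male genital discs in both wild-type strains examined. The number is 97 of 4514 eligible probes (2.15%), and of 15744 probes in all. They were chosen by the deposited values themselves. A probe was eligible when it had a value on at least 3 of 5 Berlin and at least 3 of 5 Canton S arrays. It was taken when every value was above 0 and the average of its Berlin mean and its Canton S mean was at least 3. The size and the sign of the ratio are therefore how these probes were selected, and are given as a description with no test.

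The genital disc is the larval primordium of the genitalia, the terminal parts of the gut and the analia. In both sexes it is built from a female primordium, a male primordium and an anal primordium, and the sex-specific forms of the transcription factor Doublesex decide which of the genital primordia grows and which is repressed. A ratio between discs of the 2 sexes can thus come from a difference in transcription per cell or from a different share of the cells that transcribe the gene, and fewer cells of a type and less RNA per cell cannot be told apart in pooled discs.

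The arrays compared discs of females with discs of males directly, on 5 Berlin and 5 Canton S arrays. Both are wild-type strains, and the labels name no mutant allele or transgene. Larvae were raised at 25°C and dissected after gut clearing late in the third larval instar, and each RNA came from a pool of about 50 to 100 discs. A time window of 2 to 5 hours was recorded alike for all 10 arrays. The female sample carried the dye Cy5 on 3 Berlin and 2 Canton S arrays (Berlin replicates 1, 2 and 3, Canton S replicates 2 and 3) and Cy3 on the others. The sample descriptions put female before male in the comparison. A positive value is then likely higher in female discs, provided that the deposited signs account for the dye swap, which is not known. No source used here states the numerator, and no transcript known to differ between the sexes could be read to check it. The values are taken as log2, and each fold below rests on that base.

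The probe identifiers give a printing plate and a well. The files pair none of them with a gene, and 0 matched an entry among 17872 genes of the reference table. No gene, protein or sequence can therefore be named for these probes, and the tissue could not be checked against marker genes. Whether several of the 97 probes report the same gene is not known.

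The averages of the 97 probes ran from 3.01 to 5.42 on the log2 scale, with a median of 3.39, which is 10.5-fold. The set is narrow around it, with quartiles of 3.17 and 3.65, or 8.99-fold and 12.6-fold. An average of 3.5 was missed by 56 of the probes, and 8 stood at 4 or more. The median of their Berlin means was 3.63 and that of their Canton S means 3.28. Among all eligible probes, 2838 had an average between -1 and 0 and 1254 between 0 and 1. The numbers beyond were far smaller and did not fall steadily, with 129 between 1 and 2, 161 between 2 and 3, 91 between 3 and 4 and 9 above 4. The set is thus the outer end of a small group of positive probes away from the main body.

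The threshold of 3 fell at no gap in the averages. Just inside it were DAC017M13 on plate 17, with an average of 3.01, and DAC013A09 on plate 13, with 3.03. Just outside were DAC013I06 on plate 13, with 2.99, and DAC004L07 on plate 4, with 2.98. Neither of the outside probes had a value of 0 or less. The sign condition removed 3 probes with an average of at least 3, and each was below 0 on Canton S replicate 5 alone. DAC024P20 had an average of 4.41 with -0.42 on that array, DAC033L04 had 3.20 with -0.080, and DAC027C04 had 3.13 with -1.70. The last 2 are named because there were only 3 such probes. A further 95 probes were above 0 wherever they were measured, with a plain mean of at least 3, but had too few arrays to be eligible. Of these, 42 had a value on 1 array only.

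Averages, their order and folds are given for the sign as deposited. Should the dye swap not be accounted for in the deposited signs, the arrays with the female sample in Cy3 would have to be turned. The 97 averages would then run from -1.16 to 2.72 with a median of 0.48, and 0 would reach 3.

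The probe with the highest average as deposited was DAC034O07, in well O07 of plate 34, at 5.42 or 42.8-fold. Its log2 ratios were 4.68, 7.08 and 6.33 on Berlin replicates 3, 4 and 5, and 6.86, 4.98 and 2.58 on Canton S replicates 2, 3 and 5. The strains overlapped, with 6.03 ± 1.23 in Berlin and 4.81 ± 2.15 in Canton S (SD, n = 3 each). It was missing on the other 4 arrays, and its average rests on 6. With the Cy3 arrays turned, its average would be 0.088. Its lowest value, 2.58, was the highest that any of the 97 probes reached on Canton S replicate 5.

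DAC028I08, in well I08 of plate 28, followed at 4.77 or 27.2-fold. Its log2 ratios were 4.48, 4.82 and 6.73 on Berlin replicates 3, 4 and 5, and 2.50, 8.46, 3.62 and 2.18 on Canton S replicates 1, 2, 4 and 5. The Canton S values enclosed those of Berlin, and 1 array, Canton S replicate 2, stood at 8.46. Without that array its fitted mean of both strains was 3.62, and without Berlin replicate 3 it was 7.12, against 5.27 with all arrays. The fitted mean also adjusts for the dye orientation, which is why it is not the average of 4.77.

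DAC032M17, in well M17 of plate 32, had the third highest average, 4.33 or 20.2-fold, and was the highest of the probes measured on all 10 arrays. Its log2 ratios were 7.40, 3.65, 3.47, 4.63 and 5.59 on Berlin replicates 1 to 5. On Canton S replicates 1 to 5 they were 2.33, 6.30, 3.05, 6.04 and 0.87. Its means were 4.95 ± 1.61 in Berlin and 3.72 ± 2.37 in Canton S (SD, n = 5 each), and the ranges overlapped. DAC013C12, in well C12 of plate 13, came next at 4.27 or 19.3-fold. It stood at 2.66, 3.57, 6.94 and 6.08 on Berlin replicates 2 to 5, and at 5.02, 5.68, 2.98 and 1.27 on Canton S replicates 1, 2, 3 and 5.

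DAC037M16 on plate 37 was the second highest probe with all 10 arrays, at 4.12 or 17.4-fold. Its log2 ratios were 6.78, 2.41, 3.52, 4.41 and 4.41 on Berlin replicates 1 to 5, and 2.01, 6.70, 3.09, 6.79 and 1.07 on Canton S replicates 1 to 5. Berlin replicate 1 and Canton S replicates 2 and 4 were thus high together, as in DAC032M17, and Canton S replicate 5 was the lowest in both. The eligible probes most like DAC032M17 over the 10 arrays were DAC019M02, DAC021A05 and DAC020J10, with Pearson correlations of 0.96, 0.95 and 0.95. None of the 3 is in the set, since their averages were 2.25, 2.44 and 2.70. All probes compared share the same 10 arrays, so likeness of this kind includes whatever sets the level of an array.

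The steadiest probes with 10 values still varied by array. DAC008D02 on plate 8 had the smallest SD over arrays, 1.19, with an average of 3.71. Its log2 ratios were 5.70, 2.79, 3.44, 3.92 and 3.40 on Berlin replicates 1 to 5, and 3.05, 5.18, 4.19, 3.90 and 1.52 on Canton S replicates 1 to 5. Berlin replicate 1 and Canton S replicate 2 were again its highest and Canton S replicate 5 its lowest. DAC031B07 on plate 31 followed with an SD of 1.27 and an average of 3.18. It stood at 4.34, 2.91, 3.29, 3.90 and 3.57 on Berlin replicates 1 to 5, and at 2.85, 5.41, 2.63, 2.12 and 0.76 on Canton S replicates 1 to 5. Its Berlin mean of 3.60 ± 0.55 had a smaller SD than its mean of 2.75 ± 1.69 in Canton S (SD, n = 5 each).

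The level of the whole set moved from array to array. The median of the measured members was 5.54, 2.43, 3.12, 4.00 and 3.43 on Berlin replicates 1 to 5. On Canton S replicates 1 to 5 it was 2.85, 5.16, 3.02, 4.66 and 1.33. The lowest and highest member were 2.53 and 9.44 on Berlin replicate 1, and 0.11 and 2.58 on Canton S replicate 5. The 4417 other eligible probes had medians between -0.29 (Berlin replicate 1) and 0.45 (Canton S replicate 1), and their upper quartile on Canton S replicate 5 was 1.10, against the members' lower quartile of 1.02 there. The body of other probes thus reached into the set on that array. As folds, the members' medians ran from 2.51-fold on Canton S replicate 5 to 46.5-fold on Berlin replicate 1. The same 2 arrays held most extremes of single probes. On Canton S replicate 5, 81 of the 95 members measured there had their lowest value. On Berlin replicate 1, 39 of the 64 members measured there had their highest. Another 30 had their highest on Canton S replicate 2. Next for the lowest value was Berlin replicate 2, with 10 probes. Of the 235 eligible probes above 0 wherever measured but averaging below 3, 123 were lowest on Canton S replicate 5. For their highest value, 49 had it on Berlin replicate 1 and 51 on each of Canton S replicates 1 and 2.

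Over arrays, a member's SD had a median of 1.42 on the log2 scale, with a lowest of 0.94 and a highest of 2.49. Once the set's median on each array was subtracted, the median SD was 0.77, and it was smaller than before for 95 of 97 probes. For the 235 other eligible probes above 0 on every measured array, with averages below 3, their own median on each array was subtracted. This took their median SD to 0.66, against 0.91 without it. For all 4417 eligible probes outside the set, again with their own array medians, it was 0.97 after and 1.04 before. Correlations of the 97 probes between arrays were weak, with a median Pearson correlation of 0.078 over 45 pairs of arrays, from -0.31 (Berlin replicate 1 with Canton S replicate 1) to 0.58 (Berlin replicate 3 with Berlin replicate 5). Choosing probes from a narrow range of averages by itself limits such correlations. The 4417 other eligible probes, which cover a wider range of averages, had a median of 0.34, from -0.69 to 0.80. Their median was 0.50 between arrays of the same dye orientation and 0.15 between arrays of different orientation. The lowest values came from Canton S replicates 5 and 1, at -0.69 and -0.53 with Berlin replicate 1. With Canton S replicate 2 they had -0.47 and -0.44, and with each other 0.80. Pairs of different orientation without these 2 arrays ran from -0.018 (Canton S replicates 3 and 4) to 0.59 (Berlin replicates 2 and 5).

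The rank of the set within an array differed as well. The median member lay at the 99.0th, 97.7th, 98.8th, 98.7th and 98.1st percentile of all measured probes on Berlin replicates 1 to 5. On Canton S replicates 1 to 5 it lay at the 94.9th, 98.7th, 98.4th, 98.6th and 80.6th. Among the highest 5% of measured probes were between 91.3% and 97.9% of the measured members on 8 arrays. The exceptions were Canton S replicate 1, with 49.5%, and Canton S replicate 5, with 13.7%. In all, 12 of the 97 probes were in the highest 5% on every array that measured them, 40 when Canton S replicate 5 was not counted and 72 when Canton S replicates 1 and 5 were not.

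The spread of all probes on an array did not follow the level of the set in one direction. The median absolute deviation of all log2 ratios, scaled to equal the SD of a normal distribution, was 1.90, 0.52, 0.65, 0.37 and 0.39 on Berlin replicates 1 to 5. It was 2.17, 1.29, 0.88, 1.32 and 1.22 on Canton S replicates 1 to 5. In units of this deviation, the members' median stood 10.9 above the array's own median on Berlin replicate 4 and 8.85 above it on Berlin replicate 5. On Canton S replicates 1 and 5 the distances were 1.19 and 0.63. Those 2 arrays had medians of all probes of 0.26 and 0.56, above those of the other 8. Canton S replicate 1 had the widest spread of all. The spread of Canton S replicate 5 was below those of Berlin replicate 1 and Canton S replicates 2 and 4. In that order, the distances on these wider arrays were 3.06, 4.01 and 3.55. The part of these array properties in the level of the set was not tested.

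Values were missing for these probes mainly on 2 arrays. Of 970 cells, 848 held a value, and 86 of the 122 empty ones were on Berlin replicate 1 or Canton S replicate 4. On Berlin replicate 1, 66.0% of the 97 probes had a value, against 91.6% of the 4417 other eligible probes. On Canton S replicate 4 the shares were 45.4% and 59.3%. On Berlin replicates 4 and 5 the members were measured more often, at 91.8% and 95.9%, against 82.8% and 86.8% of the others. The remaining 6 arrays measured between 92.8% and 99.0% of the members and between 92.3% and 98.8% of the others.

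Of the 235 less positive probes, 50.6% had a value on Berlin replicate 1 and 17.0% on Canton S replicate 4. They also had gaps on Berlin replicate 4, with 80.0% measured, and on Canton S replicate 2, with 81.3%. All 10 arrays measured 30 of the 97 probes (30.9%), 33 of the 235 (14.0%) and 2254 of the 4417 (51.0%). Of the other members, 33 had 9 values, 15 had 8, 17 had 7 and 2 had 6. Both arrays lacked 23 of the members, Berlin replicate 1 alone lacked 10 and Canton S replicate 4 alone lacked 30. Eligibility required only 3 values in each strain, so it left room for gaps on any array. No source used here describes a filter that emptied these cells, and its part in the pattern was not tested.

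Because Berlin replicate 1 and Canton S replicate 4 were also arrays on which the set stood high, a probe that lacked them had its average formed from lower arrays. Taking each value as its distance from the set's median on that array, the 33 probes without Berlin replicate 1 had a median distance of 0.20, against -0.11 for the 64 with it. Their averages on the rule's own scale had medians of 3.46 and 3.32. By this distance DAC034O07, DAC028I08 and DAC013C12 were the highest, at 2.07, 1.17 and 1.11. DAC032M17 was at 0.78. Of the 8 probes with the highest averages, 5 were also among the 8 highest by distance. These distances come from the values that chose the probes, and a probe without a high array had to stand higher on the others to be chosen, so they are a description only.

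The strain contrast, Berlin minus Canton S, was not itself used to choose the probes and was fitted with limma over all 4514 probes. The choice still bears on it, since a probe at or below 0 on any array of either strain could not be a member. None of the 97 probes passed (adjusted p below 0.05), as none of all tested probes did (0%), with a smallest adjusted p of 0.871. At an unadjusted p below 0.05 there were 3 of the 97 probes (3.09%; DAC038D24, DAC039E15 and DAC013M20), beside 3.39% of all tested probes. The median estimate over the 97 probes was 0.29 on the log2 scale, with quartiles of -0.14 and 0.76, and 67 estimates were above 0. Over all tested probes the median was -0.019 and 49.0% were above 0. The 95% interval of a member's difference had a median half-width of 1.87, or 3.67-fold, wider than the 1.35 of all tested probes. For a member with that half-width, a smaller difference would not pass even at an unadjusted p below 0.05. The set's array medians overlapped between the strains, at 3.71 ± 1.17 in Berlin and 3.40 ± 1.54 in Canton S (SD, n = 5 each).

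The sign of this median rested on single arrays. Leaving out Canton S replicate 5 turned it to -0.25, while Berlin replicate 1 left out gave -0.012 and Berlin replicate 4 left out gave -0.028. The highest was 0.96, with Canton S replicate 2 left out. With every array scaled to the same median absolute value it was 4.59 and all 97 estimates were above 0, with 83 at an unadjusted p below 0.05 and 0 called. That scaling enlarges the 4 Berlin arrays of small spread.

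The member with the strongest positive strain difference in relation to its error was DAC038D24 on plate 38. Its log2 ratios were 3.43, 3.61, 4.99 and 4.61 on Berlin replicates 2 to 5, and 2.73, 3.40 and 1.49 on Canton S replicates 3, 4 and 5. The groups did not overlap, although the gap between 3.43 and 3.40 was small. The fitted difference was 1.73 ± 0.67 (SE) with an unadjusted p of 0.0279 and a limma adjusted p of 0.871. Without Canton S replicate 5 it was 1.10 with an unadjusted p of 0.107, and with the arrays scaled it was 8.23. On the negative side stood DAC033O19 on plate 33, at 2.82, 2.91, 3.40 and 2.98 on Berlin replicates 2 to 5 and 5.63, 5.63 and 2.19 on Canton S replicates 1, 2 and 5. Its Berlin values lay within the Canton S range. Its difference was -1.54 ± 0.87 (SE), with a limma adjusted p of 0.871, and it was 4.36 with the arrays scaled. Leaving out Canton S replicate 5 gave -2.61 (unadjusted p 0.00227). Leaving out Canton S replicate 1 gave -0.88, and leaving out Canton S replicate 2 gave -0.72.

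The dye contrast sets arrays with the female sample in Cy5 against arrays with it in Cy3, in the same fit. If the deposited values had been turned for the dye swap, this contrast holds dye effects, and if they had not, it holds the difference between the sexes. The files do not settle which of these holds. In the second case a probe above 0 in both orientations, as each of the 97 is, would follow the dye and not the sex of the discs. The test called 0 of the 97 probes, beside 0% of all those tested, and the smallest adjusted p of any probe was 0.138. At an unadjusted p below 0.05 there were 3 of the 97 (3.09%; DAC013M20, DAC029L08 and DAC016J24), beside 27.4% of all tested probes (1238). The rule took only probes with every value above 0, so a probe whose sign changed with the orientation could not be a member. The lower share and size among the members are therefore limited by the selection, and nothing is read from them. The median size of the estimate, leaving out its sign, was 0.76 on the log2 scale for the members and 0.96 for all tested probes. Its standard error had a median of 0.86 for the members and 0.62 for all tested probes.

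The orientation estimates of the set leaned to the positive side, with 77 of 97 above 0, a median of 0.72 and quartiles of 0.21 and 1.05. Over all tested probes 47.1% were above 0 and the median was -0.11. The array medians of the set were 3.86 ± 1.40 with the female sample in Cy5 and 3.25 ± 1.27 with it in Cy3 (SD, n = 5 each), so they overlapped. This lean also turned with the handling of the arrays. Leaving out Canton S replicate 2 gave a median of 0.05, leaving out Canton S replicate 5 gave 0.24 and leaving out Berlin replicate 1 gave 0.33. Array weights gave -0.49, where 22 estimates were above 0, and scaling of the arrays gave -1.91, where 6 were.

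DAC013M20 on plate 13 had the strongest positive orientation difference in relation to its error. Its log2 ratios with the female sample in Cy5 were 5.95 and 4.30 on Berlin replicates 2 and 3 and 5.73 and 3.54 on Canton S replicates 2 and 3. With it in Cy3 they were 3.79 and 4.27 on Berlin replicates 4 and 5 and 1.11 and 1.40 on Canton S replicates 1 and 5. The orientations overlapped over both strains together and not within either strain. The difference was 2.24 ± 0.71 (SE), with an unadjusted p of 0.0103 and a limma adjusted p of 0.138. With array weights it was 1.01, and with the arrays scaled 0.99, where the unadjusted p was 0.485. On the negative side, 2 members were nearly level in relation to their error. DAC038D24 had -0.66 ± 0.67 (SE) with a limma adjusted p of 0.514, and DAC013C12 had -1.10 ± 1.12 (SE) with 0.511. Leaving out Canton S replicate 3 took the estimate for DAC038D24 to -1.28, and leaving out Canton S replicate 5 took it to -1.08.

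The contrast that chose the probes, the mean of both strains, is given for its background only. All 97 probes were called positive in it, where 8.2% of all tested probes were, and nothing is read from that count. The fitted mean had a median standard error of 0.42 on the log2 scale for the members and 0.30 for all tested probes.

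The probes came from many places on the printing plates. They lay on 32 of 41 plates, and no plate gave more than 6. The plates with 6 were plates 34, 38 and 39, where they made up 5.41%, 4.35% and 5.56% of the eligible probes. The 9 plates without any were 1, 2, 11, 12, 14, 19, 22, 27 and 36, which held 825 eligible probes. By well, each of the 16 rows held between 2 (row G) and 10 (row A) members and each of the 24 columns between 2 and 9. Neighbouring wells of a plate both held a member in 3 cases, which are DAC009A19 with DAC009B19, DAC033H20 with DAC033I19 and DAC039E15 with DAC039F14. The members of these pairs differed by a median of 0.77, 1.26 and 0.86 on the log2 scale on the arrays that measured both.

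The membership rule depended on the arrays used. Leaving out Canton S replicate 2, the array with the second highest level of the set, left 53 probes, 52 of them among the 97. Leaving out any of the other 9 arrays gave between 74 and 114, with 74 to 89 of the 97 among them. With medians in place of means within each strain there were 79, 75 of them among the 97. With the arrays centred on their medians there were 85, all among the 97.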

How the data were processed

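Female and male genital discs were compared on 10 two-colour arrays. Per the labels' protocols, RNA was amplified as aminoallyl cRNA and coupled to Cy5 or Cy3. The authors deposited 1 log ratio per probe and array, without pooling replicates. The submitters' processing notes name limma, without version or role. Background correction, normalization, spot filter, log base and numerator are stated in no source used here, and the deposited values were taken as log2. No intensities were used, so depth and brightness are unknown, and the number of arrays limits the precision.

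The 32 control rows were left out. limma 3.58.1 in R 4.3.3 (lmFit, eBayes) was fitted to all 4514 eligible probes with terms for the mean of both strains, the strain and the dye orientation, on the measured arrays of each probe. P-values were adjusted over these probes (Benjamini-Hochberg), with calls made where the adjusted p was under 0.05. The replicates are independent biological samples per the design text. Alternatives were array centring, scaling and weights, no dye term, complete probes, a replicate block, and leaving out each array. Turning the sign on the arrays with the female sample in Cy3 was added after seeing the data. The probes and the rules for naming them (extremes of the average, the SD and each contrast, and the limits of the rule) were chosen with earlier results of these data known.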

Additional observations from a re-analysis of the deposited data

Results flagged for a closer look

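Dixon's ratio was examined in 27 groups of 4 or 5 arrays of a strain, covering summaries of the 97 probes and single named probes, and 3 groups held an array that stood apart. Chance gives about 1 in 20 groups. In Berlin, replicate 1 measured 66.0% of the 97 probes, against 91.8% to 99.0% on the other 4 arrays. In Canton S, replicate 4 measured 45.4% of them, against 92.8% to 97.9% on the others. The median member lay at the 80.6th percentile of all measured probes on Canton S replicate 5, against the 94.9th to the 98.7th on the other Canton S arrays.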

How the results depend on the processing

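The strain difference had 0 calls under each of the 16 alternatives that gave it, and limma gave 45 to 561 probes with an unadjusted p under 0.05. The orientation difference had 0 calls as reported and 0 to 2 without single arrays (2 without Canton S replicate 4), 102 with array weights and 169 with scaled arrays. Of the 97 probes, 1 was called with array weights (DAC013C12) and none with scaling. Scaling moved the set's median strain difference to 4.59, its median orientation difference to -1.91, the strain difference of DAC033O19 to 4.36 and the number of members to 220. It also moved 8 of the 12 named members' fitted means, to between 4.61 (DAC031B07) and 9.86 (DAC034O07), with 7.94 for DAC028I08 and 7.46 for DAC013C12. Leaving out single arrays gave 53 to 114 members. Turning the sign on the arrays with the female sample in Cy3, chosen after seeing the data, left 0 members. For the 97 probes this was fixed in advance, since each was above 0 on such an array. None of the other eligible probes met the rule after turning either. Of the 97 averages, 72 were above 0 after turning. Among the 12 named members, 5 averages changed sign. They became -1.16 for DAC028I08, -0.55 for DAC013C12, -0.68 for DAC038D24, -0.45 for DAC033O19 and -0.51 for DAC017M13. The cause of the changes under the other settings was not tested. The values gave no sign that the replicate numbers mark pairs. The correlations that follow cannot exclude it, since whatever sets the level of an array enters them too. For each number, the 2 arrays' departures from the mean of their strain correlated at -0.60, -0.48, -0.017, -0.12 and 0.50, and no array correlated best with its own number. With the replicate block and no dye term, the strain difference had 0 calls, 88 probes at an unadjusted p below 0.05 and a median of 0.28 over the members.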
